A study of Mus musculus with 8 samples.

Results

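The genes described here are the nuclear-encoded genes of the mitochondrial respiratory chain in mouse embryonic stem cells. They were taken from the deposited expression table by their gene names, as every entry beginning Nduf followed by a, b, c, s or v, the 4 succinate dehydrogenase genes Sdha to Sdhd, and every entry beginning Uqcr, Cox4 to Cox8 or Atp5. Names carrying the pseudogene mark were left out. This gave 93 of 49641 entries, of which 82 encode subunits of complexes I to V and 11 encode assembly or other factors. The name rule itself uses no measured value. Of the 93 genes, 88 had a mean level of at least 1 FPKM and were tested among 12786 genes. FPKM, fragments per kilobase and per mapped library, is a level corrected for transcript length and sequencing depth.

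RNA sequencing was done on 8 libraries, 2 in each of 4 groups. The siMbnl1/2 group was Dgcr8 knockout (KO) cells given siRNAs against Mbnl1 and Mbnl2, and the miR-294 group was Dgcr8 KO cells given a mimic of the microRNA miR-294, both at 50 nM and 16 hours after plating. The Dgcr8 KO group and the wild-type (WT) group were mock transfected. Dgcr8 is a partner of the nuclease that starts microRNA maturation, so the siMbnl1/2, miR-294 and Dgcr8 KO groups all lack it by their labels. All cells are labelled as line V6.5 with a mixed 129 and C57BL/6 background, but the WT columns are named V65 and the KO columns ES1. A shared parental line is therefore not established, and a difference between KO and WT cells also holds any difference between the lines. Cultures were kept on gelatin or on feeder fibroblasts that had been irradiated, and which of these a sample had is not labelled. Nothing says that the 2 libraries of a group came from separate cultures, so p-values measure the spread between these libraries, which may be technical.

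The respiratory chain moves electrons from NADH through complex I, or from succinate through complex II, to ubiquinone, then through complex III and cytochrome c to complex IV, where oxygen is reduced. Complexes I, III and IV pump protons across the inner membrane, and complex V, ATP synthase, uses the gradient to make ATP. Complexes I, III, IV and V combine subunits encoded in the nucleus with a few encoded in the mitochondrial genome, whereas complex II is wholly nuclear. Embryonic stem cells are known for a metabolism rich in glycolysis, with respiration that varies between pluripotent states.

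The libraries were first set against their labels. Dgcr8 had 7.90 and 6.59 FPKM in siMbnl1/2 libraries, 6.81 and 7.28 FPKM in miR-294 libraries, 7.89 and 8.50 FPKM in Dgcr8 KO libraries, and 22.9 and 21.9 FPKM in WT libraries. It was lower in all 6 libraries labelled KO, by 1.35 on the log2 scale in Dgcr8 KO against WT cells (limma, adjusted p = 3.47e-05). Mbnl2 fell by 1.01 in siMbnl1/2 against Dgcr8 KO cells (adjusted p = 0.0191), whereas Mbnl1, at 6.84 and 6.76 FPKM in siMbnl1/2 libraries and 8.003 and 9.42 FPKM in Dgcr8 KO libraries, missed the threshold (adjusted p = 0.158). For 10 stem cell markers the summed level ran from 5812 to 7606 FPKM over the 8 libraries. That of 12 fibroblast markers ran from 7.34 to 8.43 FPKM in the 6 libraries labelled KO and was 14 and 13 FPKM in WT libraries. Most of the WT excess was Pdgfra, at 6.83 and 6.26 FPKM in WT libraries and at most 0.392 FPKM in any other, while Col1a1, Col1a2 and Col3a1 were under 1 FPKM in every library and Postn was listed at 0 in all libraries but WT replicate 1. Replicates differed most in the KO groups without the mimic. The median SD of the tested respiratory chain genes on the log2 scale was 0.0865 in siMbnl1/2 and 0.0329 in miR-294. In Dgcr8 KO it was 0.124 and in WT 0.0368. Replicate 1 lay above replicate 2 in 75 of 88 genes in Dgcr8 KO and 63 in WT, but in 26 in miR-294 and 29 in siMbnl1/2.

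The mimic added to KO cells has the sequence of the mature miR-294-3p strand, shown because its seed defines which transcripts it can pair with. It lies at chr7:3220691-3220712 on the plus strand of GRCm38.p6, from RefSeq, and the capitals mark the seed, bases 2 to 8.

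mmu-miR-294-3p: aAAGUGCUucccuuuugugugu

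Promoters are shown for Ndufb7, Sdhd, Cox7b and Atp5g1, the genes with the deepest called decrease in complexes I, II, IV and V in Dgcr8 KO against WT cells, and for Cox7a1, the 1 gene called in siMbnl1/2 against Dgcr8 KO cells. Each window runs from 250 bases before to 50 bases after the start in RefSeq GRCm38.p6, read in the direction of the gene. Capitals mark matches, on either strand, to motifs of factors known for mitochondrial genes. These were GCGCANGCG for NRF1, CCGGAAG for the ETS family factor GABPA, AAGATGGCG for YY1, AAGGTCA for the estrogen-related receptors and the E-box CACGTG. Ndufb7 has a GABPA motif, Sdhd has NRF1, GABPA and estrogen-related receptor motifs, Atp5g1 has an E-box, and Cox7b and Cox7a1 have no match. The windows are chr8:83566508-83566807 on the plus strand for Ndufb7, chr9:50603800-50604099 on the minus strand for Sdhd, chrX:106015450-106015749 on the plus strand for Cox7b, chr11:96075582-96075881 on the minus strand for Atp5g1 and chr7:30183921-30184220 on the plus strand for Cox7a1.

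Ndufb7: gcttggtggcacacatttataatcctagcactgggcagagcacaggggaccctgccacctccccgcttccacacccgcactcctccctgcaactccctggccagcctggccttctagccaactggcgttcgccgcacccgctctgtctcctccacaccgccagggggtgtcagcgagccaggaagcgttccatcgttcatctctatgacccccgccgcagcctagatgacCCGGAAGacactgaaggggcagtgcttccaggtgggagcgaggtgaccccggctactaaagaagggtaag
Sdhd: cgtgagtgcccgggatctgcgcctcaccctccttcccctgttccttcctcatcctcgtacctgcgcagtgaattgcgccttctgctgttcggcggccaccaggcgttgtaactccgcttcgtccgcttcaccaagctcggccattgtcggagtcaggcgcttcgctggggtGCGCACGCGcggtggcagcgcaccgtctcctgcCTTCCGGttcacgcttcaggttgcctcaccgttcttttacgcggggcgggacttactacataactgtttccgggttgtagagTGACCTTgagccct
Cox7b: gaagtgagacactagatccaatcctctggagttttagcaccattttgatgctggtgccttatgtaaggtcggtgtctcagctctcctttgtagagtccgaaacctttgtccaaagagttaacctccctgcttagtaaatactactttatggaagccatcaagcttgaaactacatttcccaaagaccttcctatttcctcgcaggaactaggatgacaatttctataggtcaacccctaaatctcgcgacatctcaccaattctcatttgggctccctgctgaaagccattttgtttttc
Atp5g1: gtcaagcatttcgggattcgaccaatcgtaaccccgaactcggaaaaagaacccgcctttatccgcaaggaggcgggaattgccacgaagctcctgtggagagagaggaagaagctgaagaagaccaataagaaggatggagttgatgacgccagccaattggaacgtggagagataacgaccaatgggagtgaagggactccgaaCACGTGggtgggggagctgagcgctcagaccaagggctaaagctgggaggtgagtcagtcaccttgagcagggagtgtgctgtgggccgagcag
Cox7a1: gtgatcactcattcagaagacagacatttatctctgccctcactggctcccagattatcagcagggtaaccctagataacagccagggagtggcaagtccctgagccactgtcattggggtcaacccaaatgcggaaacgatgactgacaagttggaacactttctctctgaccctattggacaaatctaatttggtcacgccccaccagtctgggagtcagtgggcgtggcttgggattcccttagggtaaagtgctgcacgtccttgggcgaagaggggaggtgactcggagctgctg

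Most respiratory chain genes were lower in Dgcr8 KO than in WT cells, with 71.4% to 87.5% of tested genes called lower in complexes I, III, IV and V and 2 of 4 in complex II. Of 88 tested genes, 60 fell (68.2%) and 3 rose, where 30.1% of all 12786 genes tested fell and 29.6% rose (limma on log2(FPKM + 1), adjusted p under 0.05). The median difference was −0.36 on the log2 scale over the respiratory chain genes and 0.00 over all genes tested, and 80 of the 88 differences were negative. The 60 decreases depended on scaling more than on any library: 43 to 65 fell when each library was left out, 36 fell and 10 rose when FPKM was rescaled to the sum of all genes but the mitochondrially encoded ones, and 35 fell and 8 rose after quantile normalization. The median stayed negative under both, at −0.14 after the rescaling, where the median of all genes moved to 0.19. After quantile normalization it was −0.16, where that of all genes was −0.04. Of all genes tested, 19.1% fell and 42.2% rose after the rescaling, and 30.5% fell and 27% rose after quantile normalization. Less the median of all genes, the respiratory chain median was −0.33 after the rescaling and −0.11 after quantile normalization. Median-of-ratios scaling gave 64 genes lower and 3 higher. In bulk RNA, fewer cells of a type and less RNA per cell cannot be told apart.

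Summed by complex, the subunits gave lower totals in both KO libraries than in both WT libraries for all 5 complexes. Complex I, with 36 genes, summed to 3055 and 2735 FPKM in Dgcr8 KO libraries, against 3978 and 3882 FPKM in WT libraries. The ratio of the KO mean to the WT mean was 0.737 for complex I, 0.779 for complex II, 0.676 for complex III, 0.737 for complex IV and 0.729 for complex V. These sums are descriptions, since 2 libraries against 2 cannot give an exact permutation p below 0.333. All 93 genes made up 2.45% and 2.30% of the summed FPKM in Dgcr8 KO libraries, against 2.84% and 2.76% in WT libraries.

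**Figure D1:**
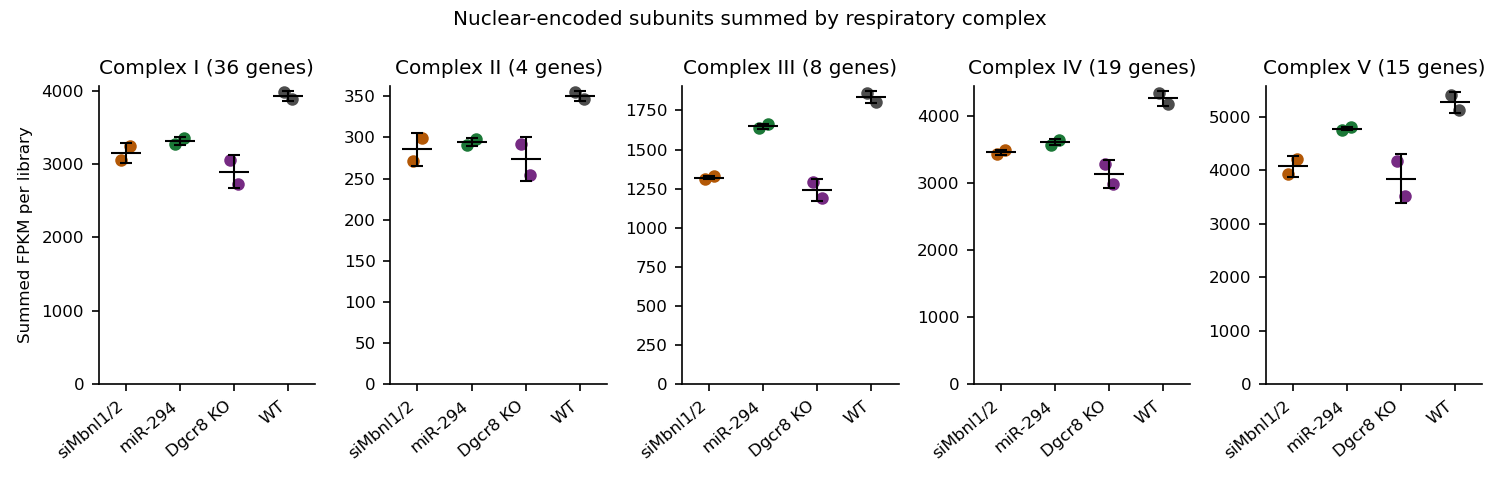
Summed FPKM of the nuclear-encoded subunits of each respiratory complex, with 1 point per library and a bar at the mean of each group. The 2 Dgcr8 KO libraries lie below the 2 WT libraries in every panel, and the miR-294 libraries lie between them in complexes I, III, IV and V but not in complex II.

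Complex I, NADH dehydrogenase, had 26 of 36 subunits lower and 1 higher in Dgcr8 KO cells, with a median difference of −0.34. The deepest decrease of any respiratory chain gene was that of Ndufb7 (chromosome 8, 83566671 to 83571626, mm10), an accessory subunit of the membrane arm. Ndufb7 had 88.9 and 73.3 FPKM in Dgcr8 KO libraries, against 189 and 179 FPKM in WT libraries. Both KO values were under either WT value by a wide gap, and the log2 difference was −1.18 ± 0.10 (SE, adjusted p = 6.75e-05). Ndufc1, another accessory subunit of the membrane arm, fell by 0.86 (adjusted p = 6.8e-05), and Ndufab1, the mitochondrial acyl carrier protein that also sits in complex I, fell by 0.52 (adjusted p = 0.00032). Ndufa7, the complex I gene with the highest mean level, had 274 and 224 FPKM in Dgcr8 KO libraries and 394 and 376 FPKM in WT libraries. The groups did not overlap, and the difference was −0.64 (adjusted p = 0.00129).

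The 7 conserved core subunits of complex I, which carry the flavin, the iron-sulfur clusters and the quinone site, were split. Of these, 4 fell, Ndufs1, Ndufs3, Ndufs7 and Ndufv2, and the others did not pass the test. All 4 calls ended after the rescaling, with adjusted p up to 0.135 for Ndufs1, 0.0726 for Ndufs3, 0.12 for Ndufs7 and 0.257 for Ndufv2 over the alternatives that keep all libraries, and that of Ndufs7 also ended without either WT replicate or Dgcr8 KO replicate 2. Ndufv1, which carries the flavin, had 87.9 and 71.1 FPKM in Dgcr8 KO libraries, against 74.9 and 71.2 FPKM in WT libraries, and the WT values lay inside the KO range (log2 difference 0.11, adjusted p = 0.389). Of the 29 accessory subunits, 22 fell and 1 rose. The 1 that rose was Ndufs4, needed for late assembly of complex I, at 44.5 and 43.5 FPKM in Dgcr8 KO libraries and 38.9 and 39.4 FPKM in WT libraries. These values did not overlap, but the difference was only 0.17 (adjusted p = 0.0427), and the call ended without any 1 of the 6 libraries of the Dgcr8 KO, WT and miR-294 groups, with an adjusted p of up to 0.197.

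Complex II, succinate dehydrogenase, had its 2 membrane anchors called lower, Sdhd by far the more, and its 2 catalytic subunits not called; anchors were not tested against catalytic subunits. Sdhd (chromosome 9, 50596357 to 50603812, mm10), the small anchor, had 54.0 and 48.4 FPKM in Dgcr8 KO libraries, against 106 and 104 FPKM in WT libraries. Both KO values lay far under either WT value, and the difference was −1.02 ± 0.08 (adjusted p = 3.39e-05). Sdhc, the other anchor, fell by 0.35 (adjusted p = 0.0363), but not when WT replicate 1 or 2, Dgcr8 KO replicate 2 or miR-294 replicate 1 or 2 was left out (adjusted p up to 0.191). Sdha, the flavoprotein that oxidizes succinate, had 99.3 and 87.8 FPKM in Dgcr8 KO libraries and 94.6 and 95.9 FPKM in WT libraries, so the groups overlapped (difference −0.03, adjusted p = 0.778). Its difference was 0.24 after quantile normalization (adjusted p = 0.0177) and 0.20 after the rescaling (adjusted p = 0.0247). Sdhb, the iron-sulfur subunit, differed by −0.12 (adjusted p = 0.256).

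Complex III, the cytochrome bc1 complex, had 7 of 8 genes lower and a median difference of −0.41. Uqcrq (chromosome 11, 53427922 to 53430831, mm10), a small ubiquinone-binding subunit, had 134 and 119 FPKM in Dgcr8 KO libraries, against 276 and 271 FPKM in WT libraries. The groups lay far apart, with a difference of −1.11 ± 0.08 (adjusted p = 2.95e-05). Uqcrh, the hinge protein between cytochrome c1 and cytochrome c, fell by 0.97, and Uqcr10, the complex III gene with the highest mean level, fell by 0.47 (adjusted p = 0.00413; 0.253 after quantile normalization). The Rieske iron-sulfur protein gene Uqcrfs1 was called lower by only 0.20 (adjusted p = 0.0331), and its call ended without either WT replicate, Dgcr8 KO replicate 2 or miR-294 replicate 1 or 2 (adjusted p up to 0.188). Uqcrb was the 1 gene not called, at −0.21 (adjusted p = 0.161).

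Complex IV, cytochrome c oxidase, had 10 of 14 tested genes lower and none higher by the adjusted or the unadjusted p, with a median of −0.47. Cox7b (chromosome X, 106015700 to 106022450, mm10), a small single-pass subunit, had 96.6 and 92.9 FPKM in Dgcr8 KO libraries, against 194 and 200 FPKM in WT libraries. The groups lay far apart, and the difference of −1.05 ± 0.06 had the lowest adjusted p of the complex, 1.53e-05. Cox4i1, the gene with the highest mean level in complex IV, encodes a subunit through which ATP and ADP regulate the enzyme. It had 632 and 529 FPKM in Dgcr8 KO libraries, against 892 and 836 FPKM in WT libraries (difference −0.58, adjusted p = 0.000875; 0.112 after quantile normalization). Cox6c fell by 0.65, Cox7a2 by 0.86 and Cox8a by 0.55, the last with an adjusted p of 0.0615 without WT replicate 1. Cox7a1, Cox6b2, Cox5a and Cox6a1 did not pass the test, and Cox6b2 was the only tested gene of the complex with a positive difference (0.22, adjusted p = 0.121). Ndufa4, once counted in complex I and now placed in complex IV, fell by 0.23 (adjusted p = 0.00714), but not without WT replicate 1 or 2 (adjusted p up to 0.0602), and its difference was 0.11 after quantile normalization.

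Complex V, ATP synthase, had 11 of 15 genes lower, with a median of −0.52 over the complex. The 3 small membrane subunits tested, Atp5j2, Atp5k and Atp5l, fell with a median of −0.98, and the 3 genes for the rotating c ring, Atp5g1, Atp5g2 and Atp5g3, fell with a median of −0.86. The peripheral stalk genes had a median of −0.33 with 3 of 4 lower, and the catalytic F1 genes a median of −0.28 with 2 of 5 lower. Whether these parts differed from each other was not tested. Atp5g1 (chromosome 11, 96068852 to 96075670, mm10) had 138 and 107 FPKM in Dgcr8 KO libraries, against 276 and 255 FPKM in WT libraries. No value overlapped, and the difference was −1.12 ± 0.11 (adjusted p = 0.000132).

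In the F1 head, Atp5b, the catalytic beta subunit and the respiratory chain gene with the highest level, had 1551 and 1131 FPKM in Dgcr8 KO libraries and 1703 and 1519 FPKM in WT libraries. Dgcr8 KO replicate 1 lay inside the WT range, and the difference of −0.28 did not pass the test (adjusted p = 0.143). Atp5a1 and Atp5c1, the alpha and gamma subunits, differed by −0.10 (adjusted p = 0.334) and −0.09 (adjusted p = 0.205). Atp5e, the small epsilon subunit, fell by 0.74 (adjusted p = 0.000224), and Atp5d, the delta subunit, by 0.52 (adjusted p = 0.0213), a call that ended without WT replicate 1, WT replicate 2 or Dgcr8 KO replicate 2 (adjusted p up to 0.109). Atp5g2 fell by 0.49 (adjusted p = 0.0115), but not without WT replicate 1 or Dgcr8 KO replicate 2 (adjusted p up to 0.0683). Without Dgcr8 KO replicate 2 the median of complex V was −0.37, and without replicate 1 it was −0.67, against −0.52 with both.

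**Figure D2:**
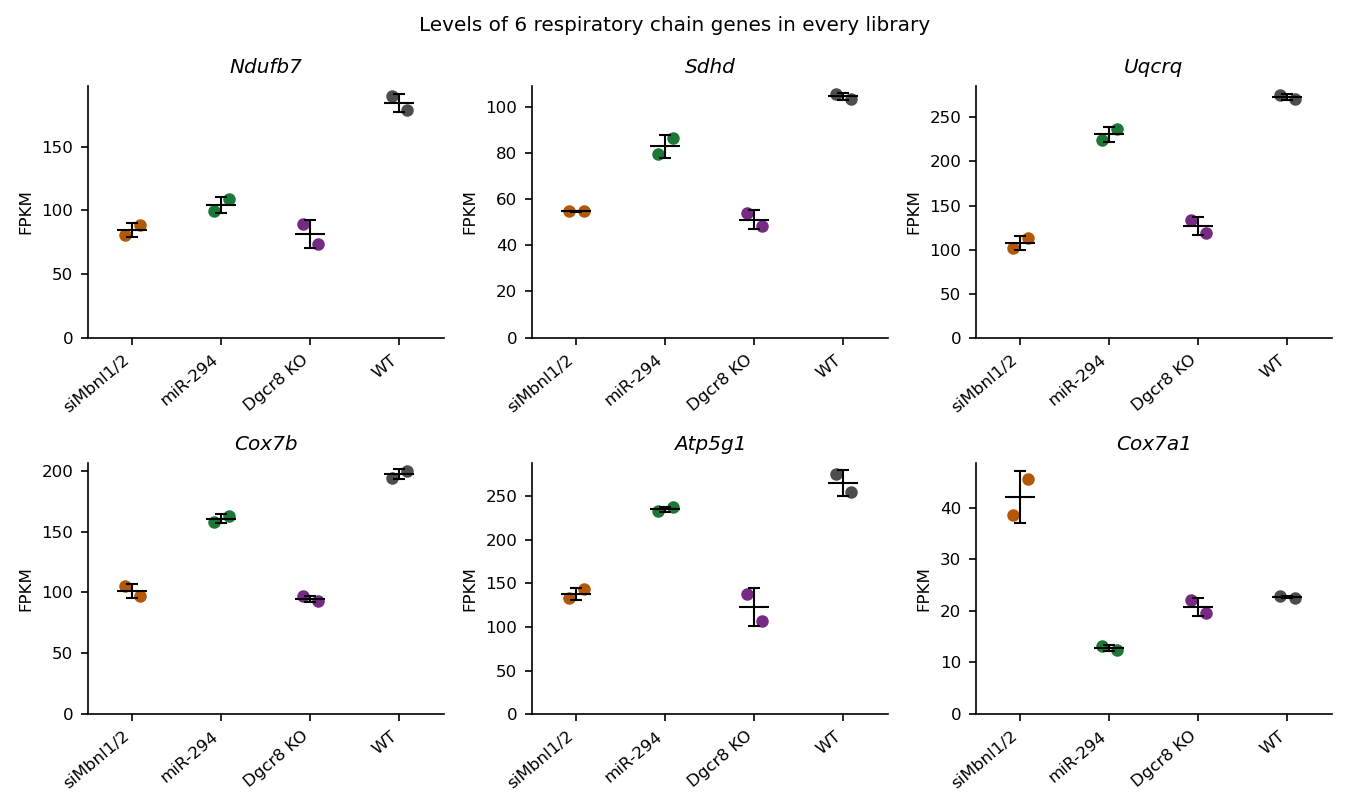
FPKM of Ndufb7, Sdhd, Uqcrq, Cox7b, Atp5g1 and Cox7a1, with 1 point per library and a bar at the mean of each group. In the first 5 panels the Dgcr8 KO values lie well under the WT values and the miR-294 values lie between them; in the Cox7a1 panel the siMbnl1/2 libraries are highest, at 38.5 and 45.6 FPKM, and the miR-294 libraries lowest.

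Of the 11 assembly and other factors, 4 fell (36.4%) and 2 rose (18.2%) in Dgcr8 KO cells, shares near the 30.1% and 29.6% of all genes tested. Ndufaf8, an assembly factor of complex I, had 12.4 and 9.62 FPKM in Dgcr8 KO libraries, against 22.6 and 19.3 FPKM in WT libraries. The groups did not overlap (difference −0.87, adjusted p = 0.000704). Cox7a2l, which helps join complexes III and IV into supercomplexes, fell by 0.75 (adjusted p = 0.000254). Atp5s, related to coupling factor B of ATP synthase, rose by 0.55 (adjusted p = 0.012), with 5.88 and 6.79 FPKM in Dgcr8 KO libraries and 4.14 and 3.84 FPKM in WT libraries, but its adjusted p was up to 0.0712 without WT replicate 2 or Dgcr8 KO replicate 2. Ndufaf5, a complex I assembly factor of the methyltransferase family, rose by 0.22 (adjusted p = 0.0378) and its call ended without any 1 of the 6 libraries of the Dgcr8 KO, WT and miR-294 groups (adjusted p up to 0.21). Thus none of the 3 increases kept its call when each library was left out, whereas 42 of the 60 decreases did.

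**Figure D3:**
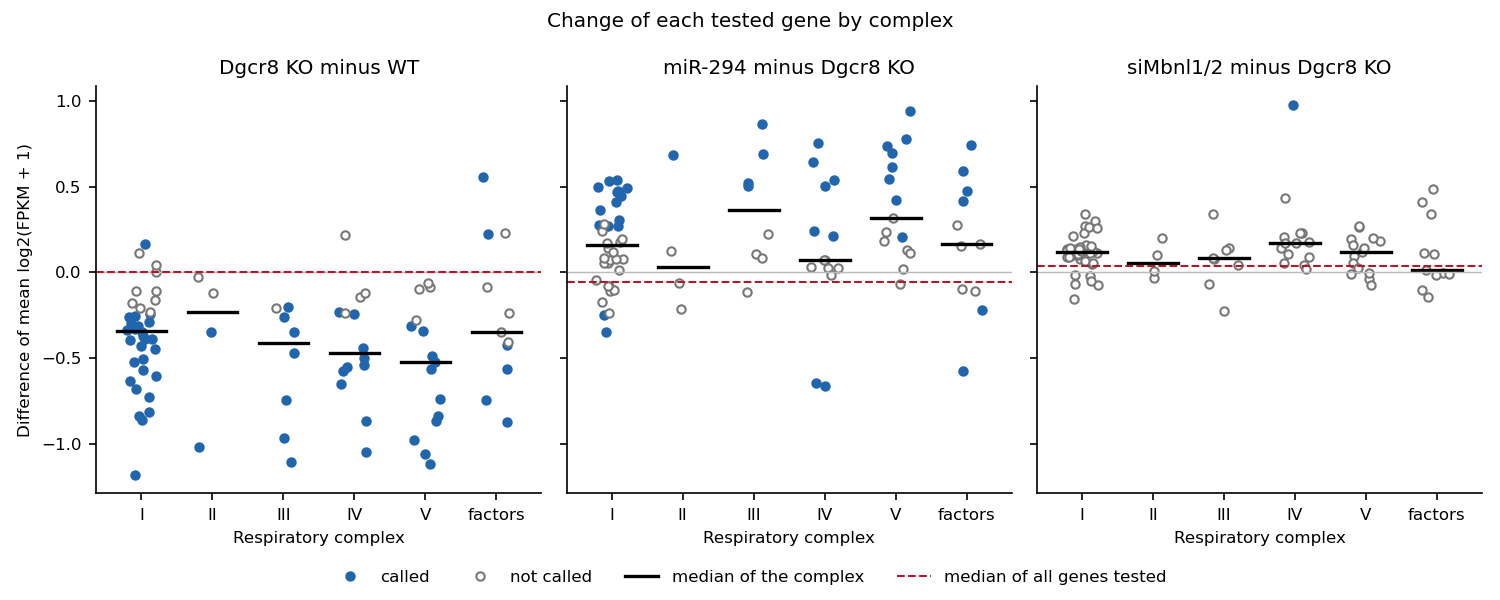
Difference of mean log2(FPKM + 1) for each tested gene, by complex and by comparison, with filled points for genes called at an adjusted p under 0.05, open points for the others, a black line at the median of each complex and a dashed line at the median of all genes tested. Most points lie below 0 in Dgcr8 KO minus WT, at a median of −0.36, and above 0 in miR-294 minus Dgcr8 KO, at a median of 0.18.

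The respiratory chain genes are short and abundant, and both features went with the direction of change over the whole table. The median length of the longest coding transcript was 936.5 nucleotides for the tested respiratory chain genes and 3065 nucleotides for all genes tested. Of all genes tested, 50.5% of those up to 700 nucleotides and 27.4% of those over 1500 nucleotides fell in Dgcr8 KO against WT cells. Among genes with a mean of 100 FPKM or more, 37 of 47 respiratory chain genes fell in Dgcr8 KO against WT cells (78.7%), and so did 515 of all 778 (66.2%). Among those that were also at most 1500 nucleotides long, 81.1% of 37 respiratory chain genes and 75.5% of all 282 fell. The gap was wider at 20 to 100 FPKM, where 64.5% of 31 respiratory chain genes and 42.7% of all genes fell. For miR-294 against Dgcr8 KO cells, the share that rose among genes of 100 FPKM or more was 53.2% for the respiratory chain and 59.3% for all genes. The part that level and length have in these differences was not tested further.

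**Figure D4:**
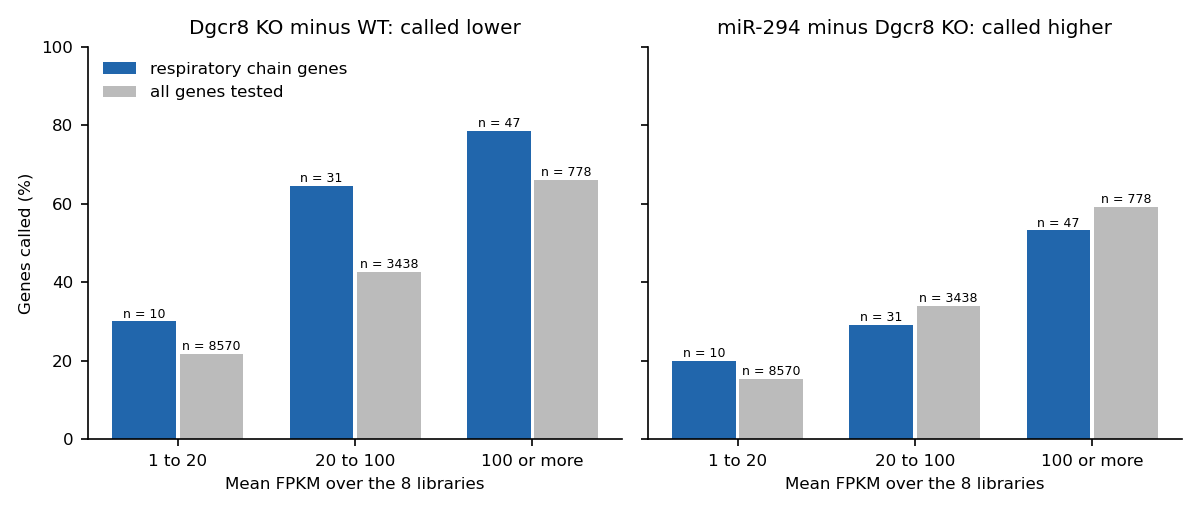
Percent of genes called, for the respiratory chain and for all genes tested, by mean FPKM over the 8 libraries; the left panel shows genes lower in Dgcr8 KO than WT cells and the right panel genes higher in miR-294 than Dgcr8 KO cells. In both panels the share called rises with level in the whole table as well, to 66.2% on the left and 59.3% on the right at 100 FPKM or more.

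Other gene lists of mitochondrial function were read in the same Dgcr8 KO against WT comparison. The 13 subunits encoded in mitochondrial DNA had 3 called higher (23.1%, against 29.6% of all genes), none called lower (none lower by unadjusted p either), and a median of 0.11. That median hung on single libraries, at −0.22 without Dgcr8 KO replicate 2, −0.09 without WT replicate 1, 0.27 without WT replicate 2 and 0.47 without Dgcr8 KO replicate 1, and 1 gene was called higher without any of the first 3 libraries; 1 was called lower without Dgcr8 KO replicate 2. Mitochondrially encoded genes held 2.63% and 3.53% of the summed FPKM in Dgcr8 KO libraries and 2.22% and 2.39% in WT libraries. How much of them a library made from polyadenylated or from total RNA takes up was not tested, and the labels and the design name different materials. The largest called change was that of mt-Nd5, a proton-pumping subunit of complex I, at 0.50 (adjusted p = 0.00663).

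Of 78 mitochondrial ribosomal protein genes, which translate those subunits, 69 fell and 1 rose, with a median of −0.62. Mrpl34, a protein of the large subunit, had 32.2 and 24.3 FPKM in Dgcr8 KO libraries and 88.7 and 79.1 FPKM in WT libraries (difference −1.55, adjusted p = 5.14e-05). Of 41 assembly factors outside the name pattern, 23 fell (14 after the rescaling) and 4 rose, led by the complex III factor Uqcc3 (−1.08, adjusted p = 0.000522). Among 17 regulators of mitochondrial biogenesis 6 fell (35.3%, near the 30.1% of all genes; 3 after the rescaling, with 2 higher), and Slirp, which stabilizes mitochondrial mRNAs, fell by 1.16 (adjusted p = 8.85e-06). Over the 17 regulators the median was −0.15, and 4 differences were positive. The factor genes Tfam and Nrf1, picked from this list after their values were seen, differed by −0.88 and −0.34.

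Of 9 electron carrier and partner genes 6 fell and 3 rose, with 2 lower after quantile normalization or the rescaling and 3 lower without WT replicate 2. In the main fit these were 66.7% lower and 33.3% higher, beside 30.1% and 29.6% of all genes tested. Cycs, cytochrome c itself, fell by 0.62 (adjusted p = 0.00177), and Cyc1, the cytochrome c1 subunit of complex III, by 0.34 (adjusted p = 0.039). Dhodh, which passes electrons from pyrimidine synthesis to ubiquinone, fell most of the 9 (−1.44, adjusted p = 4.62e-05). The citric acid cycle genes gave no common direction. Of 18, 5 fell and 2 rose with a median of −0.09, but 1 fell and 7 rose after quantile normalization or the rescaling, with medians of 0.12 and 0.14, and leaving out any 1 library of the Dgcr8 KO, WT or miR-294 groups left 2 or 3 lower, with 5 higher without Dgcr8 KO replicate 2. The main fit had 27.8% of these 18 genes lower, near the 30.1% of all genes, and 11.1% higher, against 29.6%. The whole table moved as well, to 19.1% lower and 42.2% higher after the rescaling. It had 30.5% lower and 27% higher after quantile normalization. Idh2, the NADP-dependent isocitrate dehydrogenase of mitochondria, had 179 and 145 FPKM in Dgcr8 KO libraries and 62.6 and 59.1 FPKM in WT libraries, and rose by 1.39 (adjusted p = 0.000146).

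In Dgcr8 KO cells given miR-294, part of the respiratory chain was higher than in Dgcr8 KO cells without it. Of 88 genes 36 rose (40.9%) and 6 fell, against 22.9% higher and 29.2% lower among all genes tested, and the median was 0.18 where that of all genes was −0.06. This comparison shares the 2 Dgcr8 KO libraries with the one against WT, so opposite signs in the 2 comparisons are not separate evidence. After quantile normalization 23 rose and 16 fell with a median of 0.017, against 0.0154 for all genes. Of all genes 25.6% rose and 24.4% fell there. After the rescaling 28 rose and 17 fell with a median of 0.01, where that of all genes was −0.21. The shares of all genes were then 15.6% higher and 41.3% lower. The number that fell was 2 without miR-294 replicate 1 and 3 without miR-294 replicate 2 or Dgcr8 KO replicate 1.

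By complex, 13 of 36 complex I genes rose and 2 fell, 1 of 4 rose in complex II, 4 of 8 in complex III, 6 of 14 in complex IV with 2 lower, and 8 of 15 in complex V. The medians were 0.16 for complex I, 0.03 for complex II, 0.36 for complex III, 0.07 for complex IV and 0.32 for complex V (0.49 without Dgcr8 KO replicate 1). Those of complexes I, II and IV turned to −0.01, −0.12 and −0.14 after quantile normalization and to −0.01, −0.14 and −0.07 after the rescaling, whereas complexes III and V stayed at 0.11 and 0.06, and at 0.19 and 0.15. Within complex V, the medians were 0.74 for the small membrane subunits, 0.54 for the c ring, 0.16 for the peripheral stalk and 0.18 for F1.

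The largest increase was that of Atp5g1, with 233 and 237 FPKM in miR-294 libraries, against 138 and 107 FPKM in Dgcr8 KO libraries. The miR-294 values stood close together and well above both KO values, and the difference was 0.94 ± 0.11 (adjusted p = 0.000456). Uqcrq had 225 and 237 FPKM in miR-294 libraries and 134 and 119 FPKM in Dgcr8 KO libraries (difference 0.86, adjusted p = 0.000157). Cox7b had 158 and 163 FPKM in miR-294 libraries and 96.6 and 92.9 FPKM in Dgcr8 KO libraries (difference 0.76, adjusted p = 0.000114). Sdhd had 79.5 and 86.5 FPKM in miR-294 libraries and 54.0 and 48.4 FPKM in Dgcr8 KO libraries (difference 0.69, adjusted p = 0.000312). None of these groups overlapped, and these 4 genes kept their calls under all 19 alternatives. Ndufc1 rose by 0.54 (adjusted p = 0.000914), and the assembly factor Ndufaf8 by 0.74 (adjusted p = 0.0021).

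For other genes that were low in Dgcr8 KO cells the difference was smaller or missed the threshold. Ndufb7 had 99.8 and 109 FPKM in miR-294 libraries and 88.9 and 73.3 FPKM in Dgcr8 KO libraries. The gap between the groups was smaller than the gap between the KO values, and the difference of 0.36 (adjusted p = 0.02) ended without Dgcr8 KO replicate 2 or miR-294 replicate 2 (adjusted p up to 0.124). Cox4i1 had 587 and 593 FPKM in miR-294 libraries, inside the range of the Dgcr8 KO libraries (difference 0.03, adjusted p = 0.808), and its difference was −0.29 after quantile normalization. Ndufab1 had 129 and 138 FPKM in miR-294 libraries, both under the 156 and 145 FPKM of Dgcr8 KO libraries, but its difference of −0.17 missed the threshold (adjusted p = 0.0552). Cox6b1 had 294 and 306 FPKM in miR-294 libraries and 303 and 268 FPKM in Dgcr8 KO libraries, with overlap (difference 0.07, adjusted p = 0.407; −0.23 after quantile normalization).

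Among the genes that fell with miR-294 were Cox7a1, Cox6b2, Atp5s, Ndufb4 and Ndufaf5. Atp5s fell by 0.57 (adjusted p = 0.0125; up to 0.079 without Dgcr8 KO replicate 2 or miR-294 replicate 1). Ndufaf5 and Ndufb4, an accessory subunit of complex I, fell by 0.22 and 0.25, with adjusted p up to 0.219 and 0.254 when a library was left out. Cox7a1 and Cox6b2 kept their calls in all 8 such fits and are described with the isoforms.

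Of the other lists, 59 of 78 mitochondrial ribosomal protein genes rose and 2 fell (median 0.42), with 39 higher without miR-294 replicate 2. Mrpl20, of the large subunit, rose by 1.33 (adjusted p = 4.9e-05). Of 41 further assembly factors 14 rose and 4 fell, with 7 and 6 higher without miR-294 replicate 1 and 2, and 7 higher and 10 lower after the rescaling; Cox17, the copper chaperone of complex IV, rose by 0.79 (adjusted p = 0.000312). Of 17 biogenesis regulators 8 rose and none fell by either p (5 higher without WT or miR-294 replicate 1 or 2, and 5 higher with 2 lower after the rescaling), among them the mitochondrial helicase gene Twnk by 0.73 (adjusted p = 0.000701), Tfam by 0.59 and Nrf1 by 0.50. The carriers had 3 higher and 2 lower, with Dhodh up by 0.77 and Cycs by 0.35 (adjusted p = 0.027), and 1 higher without Dgcr8 KO replicate 1 or either miR-294 replicate. The citric acid cycle genes had 3 higher and 5 lower (11 lower after quantile normalization or the rescaling, 2 without either miR-294 replicate), and Idh2 fell by 1.26. The mitochondrially encoded subunits had 5 lower and none higher by either p, with a median of −0.42; 9 were lower without Dgcr8 KO replicate 1, and 1 or 2 without Dgcr8 KO replicate 2 or either miR-294 replicate. The largest called decrease was −0.88, of mt-Co3 (adjusted p = 0.0271), a core subunit of complex IV. Of all genes tested, 22.9% were higher and 29.2% lower in this comparison. The citric acid cycle genes, at 16.7% and 27.8%, and the 9 carriers, at 33.3% and 22.2%, lay near these shares. After the rescaling 15.6% of all genes were higher and 41.3% lower, and after quantile normalization 25.6% and 24.4%.

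Set against WT, miR-294 cells had 26 of 88 respiratory chain genes lower (29.5%) and none higher, where 14.7% of all genes fell and 11.8% rose. By unadjusted p under 0.05 in the same limma fit, 37 were lower and again none higher. Of all 12786 genes tested, 5108 were under 0.05 in either direction. The median was −0.18, against −0.05 for all genes. The count moved with the number of all genes called: it was 8 without WT replicate 1, 7 without WT replicate 2, 6 without miR-294 replicate 1 and 8 without miR-294 replicate 2, and it was 55 when only the 4 libraries were fitted and 51 when each library was weighted by its group's spread. Of all genes tested, 4.54%, 5.31%, 5.18% and 5.61% were lower in those 4 fits without a library, 28.6% with only the 4 libraries and 30.2% with weights. By complex the decreases were 10 in complex I, 1 in complex II, 3 in complex III, 8 in complex IV and 4 in complex V, and none was among the factors (2 of 11 by unadjusted p).

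Of the 26 genes, 6 kept their call when each library was left out, namely Ndufb7, Ndufa12, Ndufab1, Cox4i1, Cox5b and Cox7a1, which were chosen after their values were seen. Ndufb7 had 99.8 and 109 FPKM in miR-294 libraries, against 189 and 179 FPKM in WT libraries, with no overlap (difference −0.82, adjusted p = 0.00164). Ndufab1 had 129 and 138 FPKM in miR-294 libraries, against 218 and 214 FPKM in WT libraries (difference −0.69, adjusted p = 0.000458). Cox4i1 differed by −0.55 (adjusted p = 0.00401). At the other end, Cox6c had 465 and 485 FPKM in miR-294 libraries and 484 and 472 FPKM in WT libraries, and the groups overlapped (difference −0.01, adjusted p = 0.939). Uqcr10 differed by 0.03 (adjusted p = 0.846) and Atp5g1 by −0.17 (adjusted p = 0.299), whereas Uqcrq, at −0.24, lay near the threshold (adjusted p = 0.0571).

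In Dgcr8 KO cells given siRNAs against Mbnl1 and Mbnl2, which encode splicing factors, 1 of 88 respiratory chain genes rose and none fell, against 0.868% higher and 0.242% lower among all genes tested. By unadjusted p under 0.05, 21 were higher and 1 lower in the same limma fit. Of all 12786 genes tested, 2355 were under 0.05 in either direction, so many genes outside the respiratory chain passed as well. The median was 0.12, against 0.04 for all genes, and the medians of the complexes ran from 0.05 in complex II to 0.17 in complex IV. The number higher was 0 when only the 4 libraries were fitted, where 0.00782% of all genes were higher. It also changed without Dgcr8 KO replicate 2 or siMbnl1/2 replicate 2, and so did the number called higher over all genes. The median of complex V was 0.12, and it was 0.03 without Dgcr8 KO replicate 2 and 0.25 without Dgcr8 KO replicate 1. The 1 gene was Cox7a1. Uqcrq had 102 and 114 FPKM in siMbnl1/2 libraries, both under the 134 and 119 FPKM of Dgcr8 KO libraries, but the difference of −0.23 did not pass the test (adjusted p = 0.189).

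None of the other lists held a called gene in that comparison. At an unadjusted limma p under 0.05 were 1 of 13 mitochondrially encoded subunits, 2 of 9 carriers and partners and 7 of 41 assembly factors. So were 1 of 17 biogenesis regulators, 0 of 18 citric acid cycle enzymes and 11 of 78 mitochondrial ribosomal proteins. The number over all genes was 2355 of 12786, so these counts are not read as a change of the lists. Some genes of these lists were called higher without siMbnl1/2 replicate 2, a fit that leaves 1 library in the group. More genes were called higher over the whole table there too, so those calls are not read as a result about the lists.

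In siMbnl1/2 against miR-294 cells, 10 respiratory chain genes were higher and 33 lower (37.5%), where 33% of all genes were higher and 21% lower, and the median was −0.13 against 0.10 for all genes. The counts depended on scaling, with 22 higher and 21 lower after the rescaling and 20 higher and 15 lower after quantile normalization. Of all genes, 40.2% were higher and 16.5% lower after the rescaling, and 24.5% and 26.5% after quantile normalization. Less the median of all genes, the median was −0.24 in the main fit, −0.22 after the rescaling and 0.05 after quantile normalization. Median-of-ratios scaling gave 8 higher and 43 lower, where 27.2% and 27.1% of all genes were. Without miR-294 replicate 1 the counts were 6 higher and 16 lower, and without miR-294 replicate 2 there were 14 lower. Uqcrq showed the deepest decrease, with 102 and 114 FPKM in siMbnl1/2 libraries, against 225 and 237 FPKM in miR-294 libraries. No value overlapped, and the difference was −1.09 ± 0.08 (adjusted p = 5.8e-05). Atp5g1 was lower by 0.76 on the log2 scale, Cox7b by 0.66 and Sdhd by 0.59, while Ndufab1 was higher by 0.32 (adjusted p = 0.00439).

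Several complex IV and V subunits are encoded by more than 1 gene, and the calls differed between isoforms. Cox7a1 (chromosome 7, 30184144 to 30186078, mm10) encodes the form of subunit VIIa known from heart and skeletal muscle, and Cox7a2 the form found in most tissues. Cox7a1 had 38.5 and 45.6 FPKM in siMbnl1/2 libraries, 13.1 and 12.4 FPKM in miR-294 libraries, 22.04 and 19.5 FPKM in Dgcr8 KO libraries, and 22.9 and 22.5 FPKM in WT libraries. The siMbnl1/2 libraries were above and the miR-294 libraries below all others, while Dgcr8 KO and WT lay close together without overlap. Cox7a1 was higher in siMbnl1/2 than in Dgcr8 KO cells by 0.98 ± 0.10 (adjusted p = 0.0124), but not without Dgcr8 KO replicate 2 (adjusted p = 0.0708) or with only the 4 libraries fitted (adjusted p = 0.0972). It fell by 0.66 in miR-294 against Dgcr8 KO cells (adjusted p = 0.00127), was higher by 1.64 in siMbnl1/2 than in miR-294 cells (adjusted p = 3.94e-05), and did not pass the test in Dgcr8 KO against WT cells (−0.12, adjusted p = 0.321).

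Cox7a2 had 136 and 127 FPKM in siMbnl1/2 libraries, 164 and 174 FPKM in miR-294 libraries, 116 and 116 FPKM in Dgcr8 KO libraries, and 208 and 216 FPKM in WT libraries. The groups did not overlap, and miR-294 lay between Dgcr8 KO and WT. On the length-corrected FPKM scale, Cox7a1 therefore made up 24.2% ± 3.12 of the summed Cox7a1 and Cox7a2 level in siMbnl1/2 cells, 7.04% ± 0.55 in miR-294 cells, 15.2% ± 1.03 in Dgcr8 KO cells and 9.67% ± 0.347 in WT cells (SD, n = 2 each). These shares overlapped in no pair of groups.

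Cox6b2 (chromosome 7, 4751792 to 4753094, mm10) encodes the form of subunit VIb known from testis, yet it was well expressed here. It had 175 and 206 FPKM in siMbnl1/2 libraries, 90.2 and 88.6 FPKM in miR-294 libraries, 152 and 130 FPKM in Dgcr8 KO libraries, and 128 and 113 FPKM in WT libraries. The miR-294 libraries were lowest and the siMbnl1/2 libraries highest, with no overlap between groups. It fell by 0.64 in miR-294 against Dgcr8 KO cells (adjusted p = 0.0022) and was higher by 1.08 in siMbnl1/2 than in miR-294 cells (adjusted p = 0.00021), while siMbnl1/2 minus Dgcr8 KO, at 0.44, did not pass the test (adjusted p = 0.101). Its share of the summed Cox6b1 and Cox6b2 level was 37.3% in siMbnl1/2 cells, 23.0% in miR-294 cells, 33.0% in Dgcr8 KO cells and 23.0% in WT cells, so the means of miR-294 and WT cells were equal at this rounding. Cox6b1, the general form, fell by 0.50 in Dgcr8 KO against WT cells (adjusted p = 0.000608).

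The 3 c ring genes encode the same mature protein with different import sequences. Atp5g1 made up 24.1% of their sum in siMbnl1/2 cells, 30.1% in miR-294 cells, 23.5% in Dgcr8 KO cells and 28.6% in WT cells, and Atp5g3 was the largest part in every library. Atp5g3 fell by 0.86 in Dgcr8 KO against WT cells and rose by 0.54 with miR-294. Other tissue forms were almost silent. Cox4i2, the lung form, was at most 0.195% of the summed Cox4i1 and Cox4i2 level in any library, although it was called lower by 0.54 in Dgcr8 KO than WT cells (adjusted p = 0.00718). Cox6a2 and Cox8b, known from muscle, Cox8c and Cox7b2, known from testis, and Ndufa4l2, a gene induced by low oxygen, did not reach a mean of 1 FPKM and were not tested. Cox6a2 was listed at 0 in Dgcr8 KO replicate 1, and Cox8b in siMbnl1/2 replicate 2, miR-294 replicate 2 and both WT libraries.

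**Figure D5:**
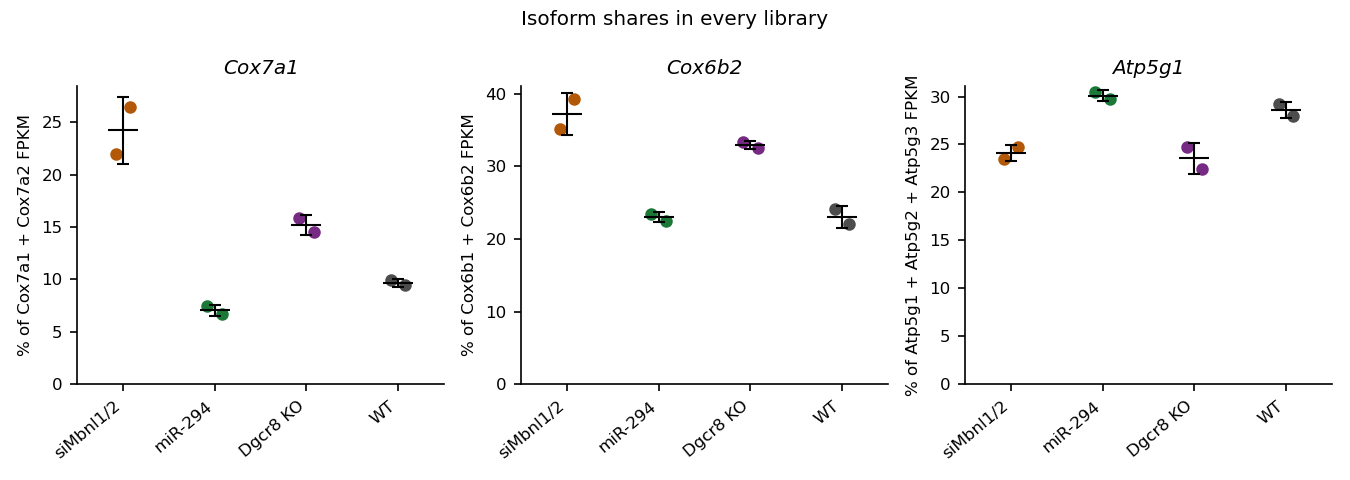
Share of Cox7a1 in the Cox7a1 and Cox7a2 sum, of Cox6b2 in the Cox6b1 and Cox6b2 sum and of Atp5g1 in the sum of the 3 c ring genes, in percent of FPKM, with 1 point per library and a bar at the mean of each group. The Cox7a1 and Cox6b2 shares are highest in siMbnl1/2, at means of 24.2% and 37.3%, and the Atp5g1 share is lower in siMbnl1/2 and Dgcr8 KO than in miR-294 and WT.

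Features outside the expression values were then read for the same genes. All 93 matched a RefSeq gene, and 77 had a promoter in the RefSeq table, with 83 promoters in all. The NRF1 motif was in 27.7% of them, against 13.6% of the promoters of all genes tested. The YY1 motif was in 12% against 3.13%, the estrogen-related receptor motif in 9.64% against 3.28%, the GABPA motif in 21.7% against 18.1%, and the E-box in 10.8% against 10.2%. Of the tested genes with a promoter, the 22 with an NRF1 motif had a median Dgcr8 KO minus WT difference of −0.34 and the 53 without it −0.41. For the other motifs the median was lower with the motif than without it. It was −0.79 in the 8 genes with an estrogen-related receptor motif and −0.35 in the 67 without it. For GABPA it was −0.56 with and −0.35 without, for the E-box −0.64 and −0.36, and for YY1 −0.44 and −0.36. These shares and medians are descriptions, and a match of letters is not evidence of binding.

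A site complementary to the seed of miR-294, AGCACTT in the DNA letters of the transcript, was in the annotated 3′ untranslated region of 6 of the 88 tested respiratory chain genes (6.82%), against 2007 of 11506 tested genes with such a region (17.4%). The longest annotated region of each gene was read, and which transcript the cells make was not tested. These regions are short in the respiratory chain, with a median of 197 nucleotides against 1125. The 6 genes were Sdhd, Ndufb2, Atp5g1, Ndufs4, Ndufb8 and Atp5sl. Their median difference in miR-294 against Dgcr8 KO cells was 0.44, and that of the respiratory chain genes without a site was 0.17. Over all genes tested, the 2007 genes with a site had a median of −0.24 and those without one −0.03. Sdhd and Atp5g1, both higher with miR-294, are shown with 30 bases around the site, from the GRCm38 annotation, with the site in capitals. The Sdhd site starts at base 10 of a region of 728 nucleotides. That of Atp5g1 starts at base 3675 of a region of 4252 nucleotides, so a transcript with a shorter region can lack it.

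Sdhd site: cctgggtgcAGCACTTtgattgtgtgcctc
Atp5g1 site: ctagtaatcccAGCACTTggagtatgcagg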

How the data were processed

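RNA was sequenced from 8 libraries of mouse embryonic stem cells. The authors deposited FPKM values per gene and library, made with STAR 2.5.0, Cufflinks 2.2.1 and the build mm10, per the submitters' processing notes; the release of the annotation is not given in the sources used here. FPKM holds no read counts, so sequencing depth stays unknown and intervals for counting error are not given. Summed over all genes, a library's FPKM ran from 473746 to 571508. FPKM is relative to the library, so a gain elsewhere lowers the values of all other genes.

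From there, genes averaging 1 FPKM or more over the libraries were fitted on log2(FPKM + 1), a scale that understates the change of low genes, with limma 3.58.1 (R 4.3.3, statmod 1.5.0). The fit had 4 group means over all 8 libraries and a moderated variance with trend and robust settings. Every adjusted p is Benjamini-Hochberg over the 12786 genes tested, two-sided, called under 0.05. There were 5 comparisons. The fit was tested on simulated data in which few genes changed and each gene had the same spread in all groups. The spread differs between the groups here and many genes were called, so that test does not cover these conditions. Alternatives were other pseudocounts (0.1 and 5), filters, scalings and variance settings, a replicate block, and each library left out.

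The genes, gene lists and naming rule were chosen with earlier results of these data known. Named were the largest called increase and decrease per complex in each comparison with Dgcr8 KO cells as 1 side and without overlap, isoform genes, all complex II genes, the most abundant gene per complex and, per list, the largest called change. Subunits and factors named beside these were added after their values were seen. Of the 93 genes, 12 overlap another gene on the same strand, Cox4i1, Atp5b and Atp5g2 among them, so their values are less certain. A gene on the other strand is overlapped by 32, and whether the libraries kept the strand is not stated here. Promoters and miR-294 came from RefSeq GRCm38.p6. The results of 1 gene that the rule would name are not reported here.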

Additional observations from a re-analysis of the deposited data

How the results depend on the processing

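For single genes, the deep decreases of Ndufb7, Sdhd, Uqcrq, Cox7b and Atp5g1 in Dgcr8 KO against WT cells kept their calls under all 19 alternatives. Of the 60 decreases, 31 kept theirs under all of them, and of the 36 increases with miR-294 21 did. Depth is unknown, so its limit on low genes cannot be given. The FPKM sum differs between groups, and 2 libraries per group leave calls near the threshold open to each library.

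Rescaling FPKM to the sum without mitochondrially encoded genes moved the median of all genes to 0.19 in Dgcr8 KO minus WT. It moved to −0.21 in miR-294 minus Dgcr8 KO and to 0.19 in siMbnl1/2 minus miR-294. Changes relative to that median are therefore given too. The respiratory chain median less that of all genes was −0.33 and 0.22 in the first 2 comparisons. After quantile normalization it was −0.11 and 0.0016, so the relative increase with miR-294 was not seen under that scaling. After the rescaling Dgcr8 KO minus WT had 10 genes higher and 36 lower. Its medians were −0.14 over all the genes, −0.12 in complex I, −0.0047 in II, −0.18 in III, −0.24 in IV and −0.29 in V. In miR-294 minus Dgcr8 KO 17 were lower, with medians of 0.0096 over all, −0.0131 in I, −0.14 in II, 0.19 in III, −0.0749 in IV and 0.15 in V. In miR-294 minus WT the medians were −0.18 in II, −0.14 in III, −0.25 in IV and −0.11 in V. In siMbnl1/2 minus miR-294 22 were higher and 21 lower, with −0.0296 over all, −0.14 in III, 0.17 in IV and −0.12 in V.

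Quantile normalization gave 8 higher and 35 lower in Dgcr8 KO minus WT, with medians of −0.16 over all, −0.13 in I, −0.0014 in II, −0.084 in III, −0.15 in IV and −0.23 in V. In miR-294 minus Dgcr8 KO it gave 23 higher and 16 lower, with 0.017 over all, −0.0096 in I, 0.11 in III, −0.14 in IV and 0.0577 in V. In miR-294 minus WT it gave −0.15 in II, −0.11 in III, −0.24 in IV and −0.10 in V. In siMbnl1/2 minus miR-294 it gave 20 higher and 15 lower, with 0.0241 over all, −0.0573 in III, 0.20 in IV and −0.0373 in V. Median-of-ratios scaling gave −0.17 in II, −0.14 in III, −0.24 in IV and −0.10 in V for miR-294 minus WT, and −0.25 over all, −0.16 in I, −0.36 in III, −0.0505 in IV and −0.33 in V for siMbnl1/2 minus miR-294. The rescaling gave every library the same sum outside the mitochondrially encoded genes. Before it, the summed FPKM of all genes was 502310 and 473746 in Dgcr8 KO libraries, against 571508 and 564280 in WT libraries. The cause of these moves was not tested beyond the shift of the common scale.

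Among the 30 tested genes that the naming rule takes in, the differences whose sign turned, with a call on at least 1 side, were Sdha in Dgcr8 KO minus WT (0.24 after quantile normalization, 0.20 after the rescaling), and, after quantile normalization, Ndufa4 in Dgcr8 KO minus WT (0.11), in miR-294 minus Dgcr8 KO (−0.0889) and in the siMbnl1/2 minus miR-294 comparison (0.0627), and Cox4i1 (−0.29) and Cox6b1 (−0.23) in miR-294 minus Dgcr8 KO.

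Weighting libraries gave 51 lower in miR-294 minus WT, and fitting only the 4 libraries gave 55 lower there and 0 higher in siMbnl1/2 minus Dgcr8 KO. With genes of at least 5 FPKM, complex IV had −0.29 in miR-294 minus WT and 0.0296 in siMbnl1/2 minus miR-294. With no filter, which brings in the silent complex IV isoforms, Dgcr8 KO minus WT had 1 higher, and complex IV had 0.21 in miR-294 minus Dgcr8 KO, −0.21 in miR-294 minus WT and −0.0106 in siMbnl1/2 minus miR-294. With a pseudocount of 5, complex IV had −0.34 in Dgcr8 KO minus WT and −0.24 in miR-294 minus WT.

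The labels do not say whether replicate numbers pair the libraries. The correlation between groups of the differences between replicates 1 and 2 ran from −0.0495 to 0.191, the last between WT and Dgcr8 KO. Replicate 1 lay above replicate 2 in 63 tested respiratory chain genes in WT and 75 in Dgcr8 KO. In miR-294 it did so in 26 and in siMbnl1/2 in 29. What the mock groups share by replicate was not tested. With the replicate block Dgcr8 KO minus WT had 1 higher and 57 lower, and no other count of respiratory chain genes moved by more than 1.5 times. Among all genes tested, the calls in siMbnl1/2 minus Dgcr8 KO went to 25 higher and 8 lower with the block, against 111 and 31 without it.

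Leaving out each library, Dgcr8 KO minus WT had 0 to 4 higher and a complex V median of −0.67 to −0.37. In miR-294 minus Dgcr8 KO 2 to 8 were lower, and the complex V median was 0.26 to 0.49. In siMbnl1/2 minus Dgcr8 KO 0 to 3 were higher, and complex V had 0.0305 to 0.25. In miR-294 minus WT 6 to 32 were lower, and complex IV had −0.34 to −0.28. In siMbnl1/2 minus miR-294 6 to 13 were higher and 14 to 35 lower, with −0.26 to −0.19 in complex III, 0.0039 to 0.0674 in IV and −0.30 to −0.20 in V.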
